A study of Mus musculus with 3 samples.

Results

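Of the 118258 H3K36me3 peaks under 10 kb on the autosomes of mouse Treg cells, 437 lay between genes and away from the ends of coding genes. A peak was counted here when its midpoint was outside every gene body of the GENCODE M21 annotation, more than 1 kb from any transcript start, and not within 10 kb downstream of the end of a protein-coding gene on that gene's strand. The whole peak set held 120910 regions in mm10 coordinates. These 437 intergenic peaks were 0.370% of the autosomal peaks under 10 kb. The rule used position alone and no signal value.

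H3K36me3 was profiled by ChIP-seq in regulatory T (Treg) cells of the spleen (SP) and of the large intestine (LI), to see how the mark is laid out in Treg cells of each tissue. Treg cells, the CD4+ T cells that restrain immune responses and depend on the transcription factor Foxp3, were sorted as CD3+CD4+Foxp3-YFP+ cells from adult Foxp3Cre-YFP mice on the C57BL/6 background, in which the Foxp3 locus drives both Cre and the fluorescent reporter. Cells of 7 male and 7 female mice were pooled before the immunoprecipitation, so there was 1 library for each tissue and no replicate, and the input, chromatin of splenic Treg cells, was not analysed here. Without replicates no difference between the tissues could be tested, no p-value is given, and the intervals below cover counting error only.

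H3K36me3 is trimethylation of lysine 36 of histone H3. Its writer, Setd2, travels with elongating RNA polymerase II, so that the mark lies mostly over the bodies of transcribed genes and increases toward their ends. Gene models differ between annotations, and long noncoding RNAs and primary microRNA transcripts, which can also carry the mark, are often modelled in part only.

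Values are mean coverage over a peak in RPKM, read coverage per kilobase, scaled to the number of mapped reads. Each tissue's column was scaled to the mean of the 2 column totals, and ratios are log2 of LI over SP with 0.5 RPKM added to each value, so a positive ratio means more signal in LI. The spleen library corresponded to about 29627900 mapped reads and the LI library to about 38096700. Each of the 6 Treg and T cell genes checked, Foxp3 among them, carried peaks. Of the 5 epithelial marker genes 2 carried peaks, Epcam and Vil1, with a summed level of 30.4 RPKM in SP and 58.9 RPKM in LI, whereas Krt8, Krt20 and Cdh1 had none. Of 3 B cell and 3 myeloid markers 1 each carried a peak, Cd79a with 48.0 RPKM in SP and 29.3 RPKM in LI, and Csf1r with 14.9 and 16.1 RPKM. The part of other cell types in the tissue differences below was not tested.

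The sequences that carry the main loci are given first, from RefSeq on GRCm38.p6, the assembly of mm10. The intergenic cluster with the most signal covered the hairpins of Mir29a, at chr6:31062660-31062747 on the minus strand, and Mir29b-1, at chr6:31063023-31063093 on the same strand. Capitals mark the seed, bases 2 to 8, by which a microRNA pairs with its targets.
miR-29a-3p: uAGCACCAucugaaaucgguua
miR-29b-3p: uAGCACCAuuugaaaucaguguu
Both mature microRNAs share the seed agcacca.

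Of the peaks that differed most between tissues, 3 are shown to let their base composition be seen, each read 5′ to 3′ on the plus strand. They are the central 300 bases of a peak upstream of Il10 at chr1:131017193-131017492, the central 300 bases of a peak beyond the end of Pvrig at chr5:138358285-138358584, and the whole of a 200-bp peak upstream of 2010109I03Rik at chr15:74908664-74908863. Capitals mark matches, on either strand, to the binding letters of 4 factor families of T cells. The letters searched for AP-1 were TGANTCA. Those for the RUNX family were TGTGGT. Those for the GATA family were AGATAA. Those for the ETS family were ACAGGAAG. Overlapping matches were kept.
Il10 upstream, higher in LI: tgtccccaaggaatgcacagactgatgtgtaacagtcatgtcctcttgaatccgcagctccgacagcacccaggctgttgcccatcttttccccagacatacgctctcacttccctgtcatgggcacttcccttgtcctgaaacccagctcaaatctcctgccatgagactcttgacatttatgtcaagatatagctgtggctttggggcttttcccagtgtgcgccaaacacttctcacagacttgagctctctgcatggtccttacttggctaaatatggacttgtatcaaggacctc
Pvrig downstream, higher in LI: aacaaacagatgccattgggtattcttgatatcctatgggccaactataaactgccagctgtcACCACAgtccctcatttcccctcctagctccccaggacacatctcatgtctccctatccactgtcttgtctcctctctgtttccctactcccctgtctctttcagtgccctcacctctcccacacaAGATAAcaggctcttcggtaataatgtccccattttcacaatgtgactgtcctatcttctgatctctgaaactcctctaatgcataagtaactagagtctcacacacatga
2010109I03Rik upstream, higher in SP: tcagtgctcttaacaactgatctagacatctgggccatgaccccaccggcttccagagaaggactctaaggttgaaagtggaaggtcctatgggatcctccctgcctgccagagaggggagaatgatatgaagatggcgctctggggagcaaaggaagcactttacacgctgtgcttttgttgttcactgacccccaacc
The Pvrig peak held 2 matches, 1 to RUNX and 1 to GATA, and the other peaks held 0. Over the central 200 bp of all 437 intergenic peaks, 4.58% held the AP-1 letters, 15.6% the RUNX letters, 9.61% the GATA letters and 2.29% the ETS letters. The same windows of all autosomal peaks gave 5.74%, 15.99%, 9.38% and 2.31%. These matches are letters in a window and not binding sites.

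Intergenic peaks were rare for the room they had. Sequence that meets the same position rule, called eligible below, made up 1094 Mb, or 45.7% of the autosomal bases, and held 0.399 peaks per Mb, against 90.5 per Mb in the rest of the autosomes. The 437 peaks covered 229 kb, 0.197% of the bases in all peaks. They held 0.163% of the summed signal in SP and 0.157% of that in LI.

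Peaks thinned out with distance from coding genes. Up to 5 kb from a coding gene body there were 1.98 peaks per Mb of eligible sequence, from 10 to 25 kb there were 1.05, from 50 to 100 kb 0.289, and beyond 250 kb 0.028. The median distance was 16.4 kb (quartiles 8.55 and 39.01 kb), and the farthest peak lay 1413 kb from any coding gene. The first bins hold only sequence upstream of genes, because the rule removes the first 10 kb downstream. The nearest coding genes numbered 204, and 258 of the peaks lay on the start side of that gene and 179 on its end side.

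**Figure D1:**
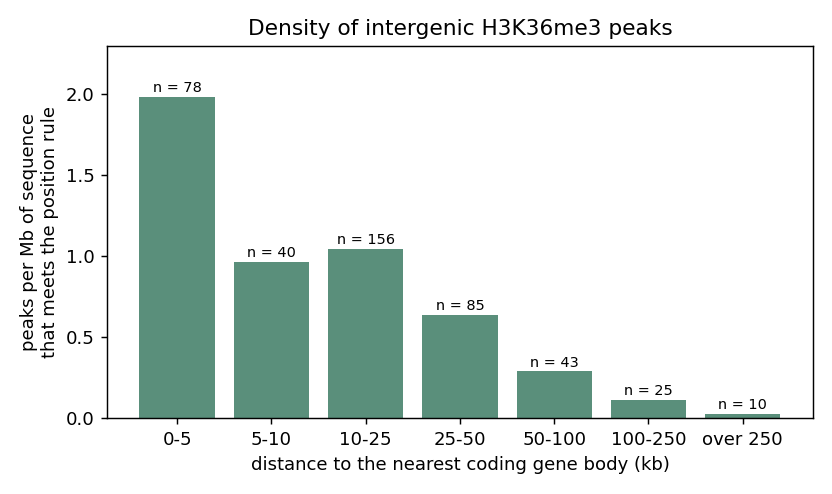
Bars show intergenic peaks per Mb of autosomal sequence that meets the position rule (vertical axis), by distance to the nearest coding gene body in kb (horizontal axis), with the number of peaks above each bar. Density was 1.98 per Mb below 5 kb and 0.028 per Mb beyond 250 kb.

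The chromosomes differed in their share. Chromosome 5 held 66 intergenic peaks and 10 of the clusters described below, chromosome 2 held 58 peaks, chromosome 7 held 50 and chromosome 11 held 44. Per Mb of eligible sequence chromosome 5 had 1.01 peaks, chromosome 11 had 0.946 and chromosome 7 had 0.898, whereas chromosome 18 had 0.068.

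Many of these peaks were intergenic only in the GENCODE annotation. RefSeq placed a gene body over 177 of the 437 midpoints (40.5%), although RefSeq bodies made up 9.66% of the eligible sequence. The density was 1.67 peaks per Mb inside RefSeq bodies and 0.263 per Mb outside. Of the 177, 87 lay in coding genes of RefSeq, 67 in long noncoding RNAs and 23 in other types, 70 genes in all. The upstream part of the RefSeq model of Zfp831 alone held 23. Under the GENCODE models, the nearest gene of any type was protein-coding for 165 peaks, a lincRNA for 90 and a processed pseudogene for 61.

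The peaks were short and weak. Their median length was 301 bp (quartiles 223 and 506 bp) against 455 bp over all autosomal peaks, and 35 peaks (8.01%) reached 1 kb. Median signal was 9.16 RPKM in SP and 8.60 RPKM in LI, against 10.5 and 10.4 RPKM over all autosomal peaks. If each read covered 200 bp, the median intergenic peak held about 7.88 reads in SP and 10.3 in LI, which bounds what a single peak can show.

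Their GC content lay above that of the eligible sequence. Median GC content was 48.5% (quartiles 45.1% and 51.9%), against 46.5% over all autosomal peaks, 47.9% in the 4335 peaks within 10 kb downstream of coding gene ends, 47.9% in 1040 peaks in lncRNA genes, and 40.6% of all eligible bases. The observed-to-expected CpG ratio had a median of 0.18, against 0.21 over all autosomal peaks. Repeat-masked bases made up 21.2% of the intergenic peaks and 39.2% of the eligible sequence. The part of read mapping in repeats was not tested.

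Levels ranged from 0.157 to 99.0 RPKM in SP and from 0.071 to 124 RPKM in LI, and 0 of the peaks were at 0 in either library. The higher of the 2 tissue values was at least 5.57 RPKM in every peak, with a median of 10.7 RPKM. In the 71 peaks below 5 RPKM in SP, LI values ran from 5.69 to 15.97 RPKM. In the 95 peaks below 5 RPKM in LI, SP values ran from 6.03 to 18.9 RPKM. A region entered the merged set when it was called in either tissue, and the values do not say in which, so a weak peak that is low in one tissue had to be high in the other.

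**Figure D2:**
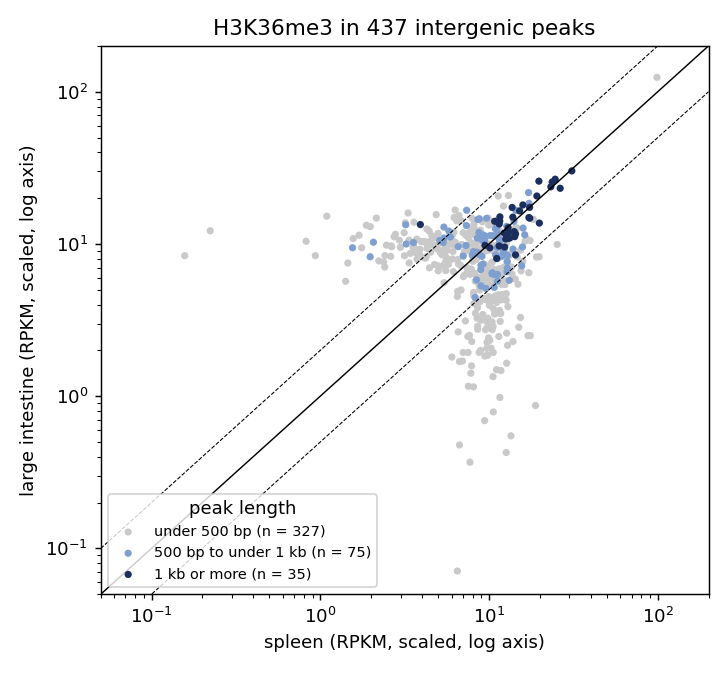
Each point is 1 of the 437 intergenic peaks, with scaled RPKM in SP on the horizontal and in LI on the vertical log axis, coloured by peak length. The solid line marks equal values and the dashed lines 2-fold differences. Short peaks spread along both arms, and only 1 of the 35 peaks of 1 kb or more lies past a dashed line.

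A single short peak stood far above the rest. The 299-bp region chr3:5860528-5860826 had 99.0 RPKM in SP and 124 RPKM in LI, with 65.6% GC, and it lay 109 kb from its nearest coding gene, Gm8797. No other intergenic peak exceeded 40 RPKM. This region was singled out after its values were seen. Because the input was not analysed, the part of background in its signal was not tested.

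Across the 437 peaks the tissues were close on balance. The median ratio was -0.11 (quartiles -0.90 and 0.61), against -0.01 over all autosomal peaks, with 202 peaks higher in LI and 235 higher in SP. More than 2-fold higher in LI were 68 peaks (15.6%), beside 9.11% of all autosomal peaks. More than 2-fold higher in SP were 96 peaks (21.97%), beside 9.53% of all autosomal peaks. An approximate 95% counting interval of the ratio, with each read taken to cover 200 bp, excluded 0 in 17 peaks higher in LI (3.89%, background 5.34%) and in 19 higher in SP (4.35%, background 4.97%). None of the 437 intervals lay wholly past 2-fold in either direction, where 0.123% and 0.0321% of all autosomal peaks did. With reads taken to cover 75 bp, 7 intervals (1.60%) lay past 2-fold in LI and 8 (1.83%) in SP, beside 0.627% and 0.545% of all autosomal peaks.

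Large ratios were most frequent in the shortest peaks. Among the 216 intergenic peaks under 300 bp the median ratio was -0.44, with 20.4% over 2-fold higher in LI and 34.3% in SP. All autosomal peaks of that length had a median of -0.06, with 17.0% and 19.7%. The 111 peaks of 300 to below 500 bp had a median of 0.05 and the 75 peaks of 500 bp to below 1 kb a median of 0.08. In the last of these classes 9 peaks (12%) were over 2-fold higher in LI and 2 (2.67%) in SP, against 4.84% and 4.09% of all autosomal peaks of that length. Among the 35 peaks of 1 kb or more the median was -0.04, with 1 peak (2.86%) over 2-fold higher in LI and 0 in SP, close to the 1.82% and 0.817% of all autosomal peaks of that length.

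**Figure D3:**
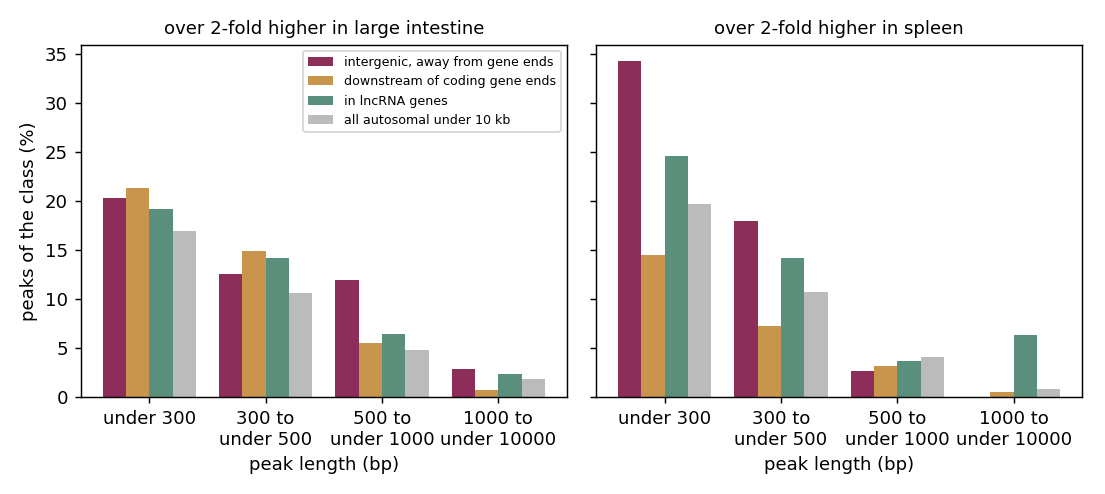
Bars give the percentage of peaks over 2-fold higher in LI (left) or in SP (right), by peak length class in bp, for intergenic peaks, peaks downstream of coding gene ends, peaks in lncRNA genes and all autosomal peaks under 10 kb. In the class under 300 bp, 34.3% of intergenic peaks were over 2-fold higher in SP, against 14.5% of downstream peaks.

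The peaks just past the gene ends, which the rule left out, looked different. The 4335 downstream peaks had a median ratio of 0.13, with 13.4% over 2-fold higher in LI and 8.19% in SP. The 1040 peaks in lncRNA genes had a median of 0.01, with 13.1% and 15.1%. Of the intergenic peaks, 38 lay beyond a coding gene end but were joined to it by a chain of peaks with gaps of at most 10 kb. Their median ratio was 0.39, with 26 higher in LI and 12 higher in SP. The 104 peaks joined in the same way to a coding gene start had a median of -0.18, with 44 higher in LI and 60 higher in SP.

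GC content moved with the ratio in intergenic peaks as it did over the whole peak set. Intergenic peaks below 45% GC had a median ratio of -0.29 (n = 108), those from 45% to below 50% had -0.21 (n = 158), and those at 50% or more had 0.20 (n = 171). The same classes over all autosomal peaks gave -0.19, 0.03 and 0.20. After correction for the trend with GC over all autosomal peaks the median ratio of intergenic peaks was -0.14. Intergenic peaks with 50% or more of their bases masked as repeats had a median ratio of -0.36 (n = 68).

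Chains of at least 3 intergenic peaks with gaps of at most 10 kb were taken as clusters. There were 47 clusters with 234 peaks (53.5%), beside 31 pairs and 141 single peaks. Clustered peaks were longer than the rest, with median lengths of 360 and 249 bp, and had less GC, with medians of 47.4% and 50%. The median cluster spanned 4.41 kb and the longest 35.6 kb, and a RefSeq gene body lay under peaks of 22 clusters. The 3 clusters with the most signal held 41.2% of all signal in intergenic peaks.

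**Figure D4:**
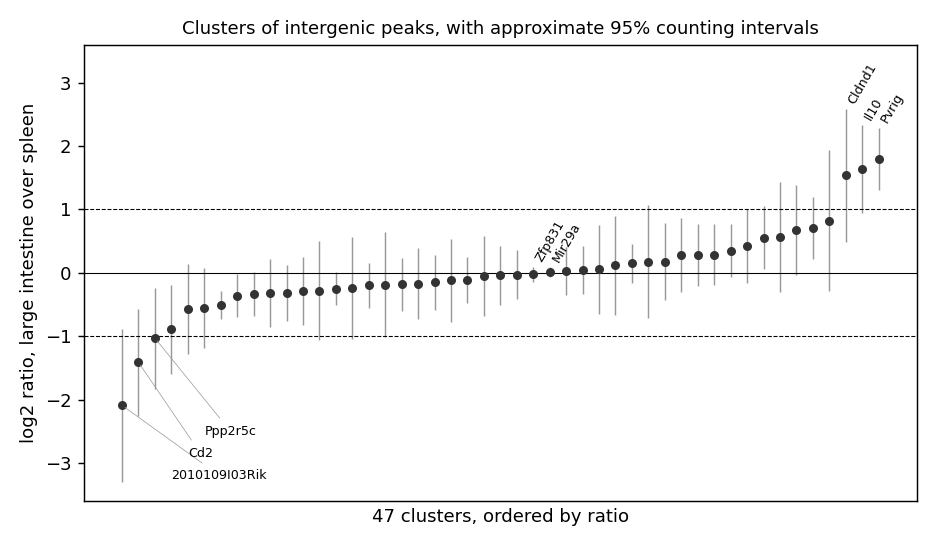
Points give the log2 ratio of LI over SP for the 47 clusters in order of ratio, with approximate 95% counting intervals as bars and dashed lines at 2-fold. Most clusters lie between the dashed lines, with 3 clusters past each of them, and the named clusters carry the gene they lie near.

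In clusters the tissue values were more precise, because reads add up over several peaks. Of the 47, 21 were higher in LI and 26 in SP. Past 2-fold were 3 clusters in LI and 3 in SP (6.38% each), beside 2.57% and 1.96% of 7199 chains of 3 or more autosomal peaks of any kind. Intervals excluded 0 in 5 clusters higher in LI and 6 higher in SP (10.6% and 12.8%), beside 23.3% and 19.8% of those chains. The chains were not matched to the clusters in number of peaks, on which both kinds of share depend. In 12 clusters every peak pointed the same way, 6 toward each tissue. That share is not given for the chains, and 38 of the 47 clusters held only 3 to 5 peaks. So the count cannot show whether peaks of a cluster agree more than others.

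The cluster with the most signal covered the hairpins of miR-29a and miR-29b, members of a microRNA family known in T cells for restraining interferon-γ production. It ran over 29.8 kb at chr6:31054863-31084692 in 5 peaks and held 26.5% of all signal in intergenic peaks. Mean signal was 26.1 RPKM in SP and 26.2 RPKM in LI, a ratio of 0.01 (interval -0.07 to 0.09), or -0.07 after correction for GC. Both hairpins shown above lay inside the 9136-bp peak chr6:31055401-31064536, with 24.7 RPKM in SP and 26.7 RPKM in LI. The 8238-bp peak upstream of it, chr6:31064689-31072926, had 31.0 and 30.2 RPKM, and the 8132-bp peak chr6:31076561-31084692 had 23.3 and 23.7 RPKM. These were the 3 longest intergenic peaks, and the levels were close in each. The intergenic peaks ended 1.94 kb from Lncpint, a long noncoding RNA, but the mark did not end there. The next peak, outside the rule, lay 22.1 to 31.4 kb upstream of the Mir29a hairpin. It had 24.8 RPKM in SP and 25.2 RPKM in LI. The nearest coding gene of the cluster, Klf14, lay at least 96.0 kb away.

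The next cluster lay upstream of Zfp831, which encodes a zinc finger protein. It held 23 peaks over 35.6 kb at chr2:174603280-174638907, all inside the longer RefSeq model of the gene, and 11.1% of all signal in intergenic peaks. Mean signal was 14.1 RPKM in SP and 13.9 RPKM in LI, a ratio of -0.03 (interval -0.15 to 0.10), with 10 peaks higher in LI and 13 in SP. Over the GENCODE gene body, which starts 5.44 kb beyond the last midpoint, 32 peaks averaged 18.1 RPKM in SP and 19.2 RPKM in LI. So the mark upstream of the GENCODE start was lower than that in the body in both tissues.

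A pair of clusters on chromosome 7 lay beside GENCODE pseudogenes and inside their longer RefSeq models. RefSeq types Gm1966 as protein-coding. The 20 peaks in its RefSeq body, at chr7:106605124-106637399, averaged 11.7 RPKM in SP and 8.07 RPKM in LI, a ratio of -0.51 (interval -0.73 to -0.29), and 16 of them were higher in SP. The 8 peaks in the RefSeq body of Gm8995, at chr7:106512687-106521210, averaged 11.01 and 8.63 RPKM, a ratio of -0.33 (interval -0.68 to 0.01), and 7 of them were higher in SP. Both lay in sequence poor in GC, with 42.2% and 39.3%, and after correction for GC their ratios were -0.35 and -0.06, so the difference at Gm8995 was not kept. Near copies of such genes can share reads, so which copy the signal belongs to is uncertain.

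The remaining large clusters lay upstream of coding genes. At chr5:23853206-23859535, upstream of Tomm7, a subunit of the mitochondrial import channel, 4 peaks averaged 13.7 RPKM in SP and 11.4 RPKM in LI, a ratio of -0.25 (interval -0.51 to 0.01), and the longest of them, of 3803 bp, had 14.1 and 12.1 RPKM. At chr5:110526183-110538652, upstream of the glycosyltransferase gene Galnt9, 11 peaks averaged 10.2 and 11.4 RPKM, a ratio of 0.15 (interval -0.16 to 0.46), or 0.10 after correction for GC. At chr2:118558325-118565190, upstream of Bmf, a promoter of apoptosis, 6 peaks averaged 11.4 and 8.81 RPKM, a ratio of -0.36 (interval -0.70 to -0.02). At chr5:140583069-140593038, between Grifin and Lfng, the latter a glycosyltransferase that modifies Notch, 8 peaks averaged 10.7 and 9.28 RPKM, a ratio of -0.20 (interval -0.55 to 0.16), or -0.41 after correction for GC. None of these 4 clusters differed by 2-fold. The gene of any type nearest to the Tomm7 cluster was the lincRNA 2700038G22Rik. The lincRNA A630023P12Rik was nearest to some peaks at Galnt9, and the lincRNA Gm43703 to some between Grifin and Lfng. Body ratios were 0.17 for Tomm7, 0.88 for Galnt9, 0.48 for Bmf and -0.20 for Lfng. The Tomm7 body was weaker than its cluster, with 6.93 RPKM in SP and 7.86 RPKM in LI.

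The largest difference toward LI was beyond the end of Pvrig, which encodes an inhibitory receptor of lymphocytes. The 6 intergenic peaks at chr5:138353822-138362408 lay 10.6 to 18.5 kb downstream of the GENCODE gene end and inside the RefSeq model of Pvrig-ps. They averaged 2.87 RPKM in SP and 11.2 RPKM in LI, a ratio of 1.80 (interval 1.30 to 2.29), the only cluster whose interval lay wholly past 2-fold. SP values ran from 1.55 to 3.92 RPKM and LI values from 8.24 to 13.4 RPKM. The 1358-bp peak whose centre is printed above had 3.92 and 13.4 RPKM, a ratio of 1.65 (interval 0.86 to 2.45). Its neighbours chr5:138361657-138362408 and chr5:138355224-138356171 had ratios of 1.90 (interval 0.74 to 3.06) and 1.82 (interval 0.51 to 3.13). From the gene end to 22 kb beyond it there were 17 peaks, 11 of them outside the rule, and all 17 were higher in LI. No peak lay in the body of Pvrig itself.

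The second lay just upstream of Il10, the gene for an anti-inflammatory cytokine of intestinal Treg cells. The 4 peaks at chr1:131015155-131018879 lay 1.43 to 4.50 kb before the gene and averaged 3.36 RPKM in SP and 11.5 RPKM in LI, a ratio of 1.63 (interval 0.94 to 2.33). From the farthest to the nearest, SP had 4.25, 4.87, 2.15 and 3.23 RPKM, and LI had 8.27, 15.6, 14.8 and 9.996 RPKM. The third of these peaks, the one printed above, had a ratio of 2.53 (interval 0.83 to 4.23). The Pvrig and Il10 clusters were named for the interval bounds of these same values, and peaks of 1 library are not replicates. The Il10 body itself, covered by 1 peak, had 3.74 RPKM in SP and 18.1 RPKM in LI, so gene and upstream peaks were higher in the same tissue.

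**Figure D5:**
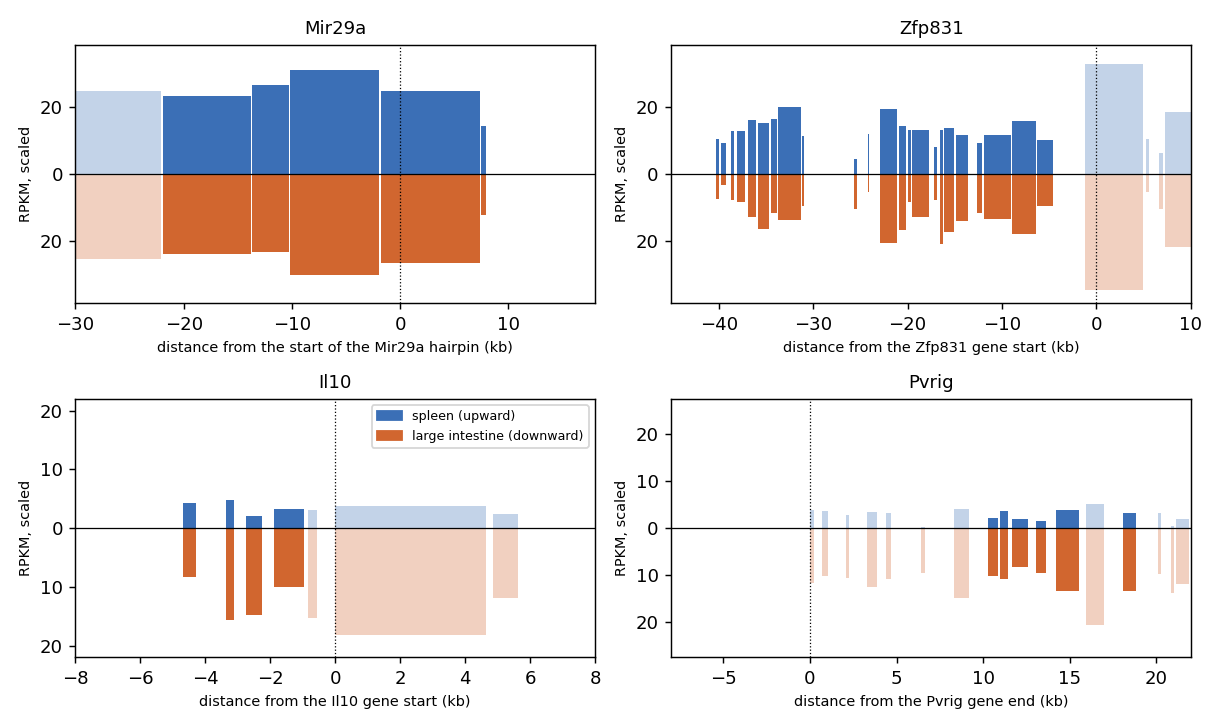
Bars show each peak at 4 loci, as wide as the peak, by distance in kb from the Mir29a hairpin, the Zfp831 and Il10 gene starts and the Pvrig gene end along the strand of the gene, with scaled RPKM in SP upward and in LI downward. Full colour marks intergenic peaks and pale colour other peaks. At Mir29a and Zfp831 the upward and downward bars are close in height for most peaks, and at Il10 and Pvrig all peaks from 5 kb upstream to 8 kb past the start and from 0 to 22 kb past the end are higher in LI.

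There were 3 further clusters with intervals above 0. Beyond the end of Cldnd1, a gene for a claudin-domain protein, 3 peaks at chr16:58744982-58746921 averaged 3.89 RPKM in SP and 12.2 RPKM in LI, a ratio of 1.54 (interval 0.49 to 2.58). Beyond the end of Smarce1, a subunit of the SWI/SNF chromatin remodelling complex, 7 peaks at chr11:99187293-99196262 averaged 7.49 and 12.6 RPKM, a ratio of 0.71 (interval 0.22 to 1.20). Near Art2b, an ADP-ribosyltransferase of T cells, 3 peaks at chr7:101561929-101565921 averaged 7.16 and 10.8 RPKM, a ratio of 0.56 (interval 0.06 to 1.06). The gene of any type nearest to these peaks was the pseudogene Art2a-ps. The bodies of Cldnd1, Smarce1 and Art2b had ratios of 0.61, -0.02 and -0.42, so the Art2b body had the opposite direction. All 5 clusters that were higher in LI by this interval, except that at Il10, lay beyond a coding gene end.

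Toward SP, the most extreme interval bounds belonged to 5 clusters. Upstream of 2010109I03Rik, 3 peaks at chr15:74907247-74910734 averaged 11.97 RPKM in SP and 2.43 RPKM in LI, a ratio of -2.09 (interval -3.30 to -0.88). SP had 13.9, 17.6 and 7.50 RPKM and LI had 2.29, 2.50 and 2.47 RPKM, and the second of these peaks is the 200-bp sequence printed above. No peak lay in the body of that gene. Upstream of Cd2, an adhesion receptor of T cells, 4 peaks at chr3:101303628-101312512 averaged 10.1 and 3.49 RPKM, a ratio of -1.41 (interval -2.25 to -0.57), with SP values from 9.43 to 11.6 RPKM and LI values from 0.69 to 4.29 RPKM. The body of Cd2 had 29.9 RPKM in SP and 24.99 RPKM in LI, a smaller ratio of -0.26.

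The other clusters of this kind lay farther from coding genes. Upstream of Ppp2r5c, a regulatory subunit of protein phosphatase 2A, 3 peaks at chr12:110371763-110383884 averaged 12.3 RPKM in SP and 5.75 RPKM in LI, a ratio of -1.03 (interval -1.82 to -0.24), at least 63.4 kb from the gene. Its body had a ratio of 0.15. Between Gsta3, a glutathione transferase, and Khdc1a, 3 peaks at chr1:21301377-21310733 averaged 10.9 and 5.65 RPKM, a ratio of -0.89 (interval -1.59 to -0.19). The Gsta3 body, covered by 1 peak, had 4.60 RPKM in SP and 15.1 RPKM in LI, the opposite direction. The Gm1966 cluster given above was the fifth.

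Taken singly, the peaks with the most extreme interval bounds lay in these regions and at a few other sites. Toward LI, the 381-bp peak chr7:141056304-141056684, upstream of the glycosyltransferase gene B4galnt4, had 1.09 RPKM in SP and 15.2 RPKM in LI, a ratio of 3.30 (interval 0.67 to 5.94). Toward SP, chr6:120498988-120499412 upstream of Tmem121b had 15.4 and 3.29 RPKM, a ratio of -2.07 (interval -3.44 to -0.69). The peak chr17:18565745-18565982, upstream of the vomeronasal receptor gene Vmn2r96, had 18.9 and 0.87 RPKM, a ratio of -3.82 (interval -7.08 to -0.57). The wide intervals show that a few reads set these ratios. The peak chr18:4410609-4410891 beyond Mtpap had a ratio of -2.22 (interval -4.01 to -0.42). The next intergenic peak beyond Mtpap, chr18:4412199-4412441, had the opposite direction, with a ratio of 1.82 (interval -0.12 to 3.75). The peak chr10:117862134-117862333 upstream of Rap1b, a small GTPase, had a ratio of -2.55 (interval -4.77 to -0.32).

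Of the 5 longest peaks, 1 lay beside a host gene of small nucleolar RNAs. The 4335-bp peak chr11:117077432-117081766, 0.64 kb downstream of the lncRNA Snhg20, had 19.8 RPKM in SP and 25.9 RPKM in LI, a ratio of 0.38 (interval 0.16 to 0.60), or 0.20 after correction for GC. A similar peak next to Snhg15, of 2735 bp at chr11:6524201-6526935, had 23.7 and 25.6 RPKM, a ratio of 0.11 (interval -0.16 to 0.37). Peaks stood on both sides of Mir146, the hairpin of miR-146a, which limits inflammatory signalling in Treg cells, but did not cover it, with 10.6 and 11.4 RPKM in SP and 9.01 and 10.9 RPKM in LI. Downstream of the T cell receptor constant genes, which the annotation does not type as protein-coding, the peak at Trbc1 had 6.59 and 7.40 RPKM and that at Trbc2 had 13.7 and 6.34 RPKM. The Snhg15, Mir146, Trbc1 and Trbc2 peaks were singled out after their values were seen.

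A list of 89 genes of T cell and Treg cell function was set beside the nearest coding genes. Of these, 11 genes were nearest to 25 intergenic peaks, with a median ratio of 0.88, against -0.11 over all 437. Higher in LI were 18 of the 25 and higher in SP 7, with 11 and 4 past 2-fold, where 9.11% and 9.53% of all autosomal peaks and 15.6% and 21.97% of the 437 were. Of these 25, 4 formed the Il10 cluster, and 21 lay within 50 kb of the gene. The list and the nearest-gene rule say nothing about which gene a peak belongs to.

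Upstream of Maf, a transcription factor that promotes Il10 transcription in T cells, 2 peaks had 4.52 and 4.34 RPKM in SP and 8.84 and 10.3 RPKM in LI, ratios of 0.90 and 1.16 with intervals that included 0. The Maf body, with 15 peaks, had 6.56 RPKM in SP and 14.5 RPKM in LI. Upstream of Ezh2, the methyltransferase of lysine 27 of histone H3, 2 peaks had 3.90 and 7.35 RPKM in SP and 9.24 and 13.2 RPKM in LI. Their ratios were 1.15 and 0.80, again with intervals that included 0. The Ezh2 body had a ratio of -0.41, the opposite direction.

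Beyond the end of Btg1, a gene of lymphocyte quiescence, 3 peaks averaged 5.25 and 8.05 RPKM, a ratio of 0.57 (interval -0.30 to 1.44). Beyond the end of Ikzf2, which encodes the Treg transcription factor Helios, 4 peaks averaged 7.94 and 8.27 RPKM, a ratio of 0.06 (interval -0.65 to 0.76), or 0.19 after correction for GC, while the body had -0.48. A peak upstream of Bcl11b, a T cell identity factor, had 6.25 and 9.84 RPKM, a ratio of 0.62, or 0.25 after correction for GC, and one upstream of Ccr7, the lymph node homing receptor, had 7.85 and 6.85 RPKM. The Ccr7 body had 27.0 RPKM in SP and 10.4 RPKM in LI, a ratio of -1.33. The 3 peaks assigned to Gata3 lay at least 878 kb away, with a mean of 5.07 RPKM in SP and 9.36 RPKM in LI. Each of these 4 intervals, those of Bcl11b, Ccr7, Ikzf2 and Gata3, included 0.

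Chosen after their values were seen, a 218-bp peak 11.4 kb beyond the end of Ctla4, the inhibitory receptor of Treg cells, had 1.70 RPKM in SP and 11.4 RPKM in LI. A 308-bp peak 13.9 kb beyond S1pr1, the receptor for exit from lymphoid tissue, had 8.57 RPKM in SP and 2.75 RPKM in LI. Both intervals included 0. The S1pr1 body had 21.9 RPKM in SP and 6.68 RPKM in LI. Chosen in the same way, a peak beyond the end of Ccr7 had 9.87 RPKM in SP and 2.91 RPKM in LI, with an interval of -3.78 to 0.57. A single peak nearest to Foxo1, but not within 50 kb of it, had 10.6 RPKM in SP and 0.79 RPKM in LI. The Foxo1 body had a ratio of -0.06.

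Signature genes of colonic and splenic Treg cells, from the study's supplement and based on expression in other samples, were compared in the same way. The 11 colonic signature genes with an intergenic peak had 18 peaks with a median ratio of 1.01, 15 of them higher in LI and 3 in SP. The 14 splenic signature genes had 30 peaks with a median of -0.22, 12 of them higher in LI and 18 in SP. Past 2-fold, the colonic peaks numbered 9 in LI and 2 in SP, and the splenic peaks 4 in LI and 8 in SP. The shares were 9.11% and 9.53% of all autosomal peaks, and 15.6% and 21.97% of the 437 intergenic peaks. The Il10, Cldnd1, Maf and Ctla4 peaks described above belong to the colonic list, and those near S1pr1, Art2b, Lfng and Khdc1a to the splenic list. The 18 colonic peaks include the 4 of the Il10 cluster and the 3 of the Cldnd1 cluster, so they are not 18 separate sites. Both clusters were named for the interval bounds of these same values.

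Intergenic peaks followed the body of their nearest coding gene only loosely. Of the 204 nearest genes, 47 had no peak in the body and 122 had 3 or more. Over these 122, the ratio of the intergenic peaks and that of the body had a Pearson r of 0.25 and a Spearman rho of 0.25, and the direction was shared in 75 genes (61.5%). Both ratios come from the same libraries, and genes are not replicates. The ratios of intergenic peaks were more spread, with an SD of 1.34 on the log2 scale against 0.42 for bodies. In the 48 genes to which a chain of peaks led, r was 0.39, and the direction was shared in 29.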

How the data were processed

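The deposited values, although labelled as raw counts, are not whole numbers: they are mean RPKM coverage per peak. The authors aligned single-end 75-nt reads to mm10, called peaks per tissue with MACS2 against the splenic input at p 0.01, merged the 2 peak sets with bedtools, made RPKM tracks with bamCoverage and averaged them over each merged peak with multiBigwigSummary. The submitters' processing notes list FastQC, Bowtie2, MACS2 and bedtools. Equal chromatin, 1 µg per immunoprecipitation with an antibody from Active Motif, was used. The number of sample columns set aside was 0.

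From these values, each column was scaled to the mean column total (Python 3.11.15, pandas 2.3.3, numpy 2.4.6). In 508 SP and 496 LI values, from peaks that start and end on a 20-bp grid, the value times the length in 20-bp bins was a whole multiple, within 0.02, of a step of 1.69 RPKM in SP and 1.31 RPKM in LI in 100% of cases, and the mapped reads were computed from that step. Reads per peak were not recovered, so the approximate 95% intervals take a read as covering 200 bp and reads as independent molecules. Genes came from GENCODE M21, and second gene models, masking and sequences from RefSeq (GRCm38.p6). The interval script was tested on simulated data. The members, gene lists, tests and alternatives were chosen with earlier results of these data known, and 1 library per tissue allows no test. Regions named were the 8 clusters with most signal, the 5 clusters and 5 peaks in each direction with the most extreme nearer interval bound, the 5 longest peaks, and up to 10 regions nearest to a gene on the T cell list. Alternatives were 2 other scalings, GC correction, pseudocount, filters on signal, length and very high values, and other distances for the position rule and the clusters.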

Additional observations from a re-analysis of the deposited data

How the results depend on the processing

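No paired analysis was possible because each tissue has 1 library and no result comes from a test, and leaving out a library leaves no comparison. Of 65 values recomputed for the main results, 45 stayed the same within the limits used (1.5 times for a count, the 95% interval for a median or share) and 20 moved. The median ratio stayed between -0.14 and -0.01, and the number of clusters between 38 and 49. The number of intergenic peaks was 437, 278 when over 5 kb from a transcript start was asked, 260 outside RefSeq gene bodies too, an alternative chosen after seeing the data, and 654 with 5 kb in place of 10 kb excluded downstream of coding gene ends. Counts over 2-fold were 68 in LI and 96 in SP. They became 22 and 34 with a pseudocount of 5 RPKM, 7 and 10 in peaks whose values summed to 20 RPKM or more, and 1 and 0 in peaks of at least 1 kb. The LI count was 45 with 20 kb excluded downstream of coding gene ends, and 45 outside RefSeq bodies. The share of signal was 0.312% in SP and 0.292% in LI when values were not weighted by length, 0.145% and 0.138% with 20 kb excluded, and 0.121% and 0.115% with the whole peak outside genes. Median GC was 46.4% in peaks of at least 1 kb. Clusters past 2-fold in LI fell from 3 to 1 with a pseudocount of 5 and to 1 with 20 kb excluded, and those in SP from 3 to 1 with a pseudocount of 5. Of 123 values for named regions, 122 stayed inside the counting interval of the reported ratio, which is wide for single peaks, and the Pvrig cluster, with 1.04 at a pseudocount of 5, did not. That pseudocount also took the Il10 cluster to 0.98, the Cldnd1 cluster to 0.95, the 2010109I03Rik cluster to -1.19, the Cd2 cluster to -0.83 and the Ppp2r5c cluster to -0.68. It took the peak near Vmn2r96 from -3.82 to -2.02 and that near B4galnt4 from 3.30 to 1.73. Correction for GC took the Gm8995 cluster from -0.33 to -0.06, the Grifin and Lfng cluster from -0.20 to -0.41 and the miR-29 cluster from 0.01 to -0.07. With reads taken to cover 75 bp, intervals excluded 0 in 76 peaks higher in LI and 115 higher in SP, in place of 17 and 19, which is 17.4% and 26.3% of the intergenic peaks beside 17.6% and 18.7% of all autosomal peaks. The causes were not tested. Depth limits single peaks: the median peak held about 7.88 reads in SP and 10.3 in LI, so most differences between single short peaks were not detectable, and the intervals leave out biological spread, which 1 library per tissue cannot show.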
